A study of Rattus norvegicus with 4 samples.

Results

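The TCA cycle enzymes Cs, Idh2, Idh3g, Suclg1 and Pc were followed in the soleus, a slow muscle that holds posture in the hindlimb, through every probe set annotated to them on an Affymetrix GeneChip. A probe set is a group of short probes meant to read 1 transcript, though 308 in the table are annotated to several symbols. The genes were taken from a list of 9 symbols. Of these, 5 had a probe set with that symbol alone in the annotation used, giving 8 probe sets out of 8799 in the table, and the other 4 (Idh3a, Idh3b, Ogdh and Fh) had none and were not analysed here. Idh2, Suclg1 and Pc were read by 2 probe sets each, and Cs and Idh3g by 1 each. Both probe sets of Idh2 are annotated to the same sequence entry, as are both of Pc, so within these genes the probe sets are not independent readings.

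There were 2 groups of female rats with 2 arrays each. Unloaded rats could not stand on their hindlimbs during 10 h per day, repeated over 11 days. Control rats were caged with normal standing and walking over the same period. Each array carried soleus RNA of 4 to 5 rats in a pool. Replicates are pools, so p-values describe the spread between pools and not between single animals, and 2 pools per group limit the precision of every value. No strain or age is stated in the sources used.

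The TCA cycle runs in the mitochondrial matrix and oxidises the acetyl group of acetyl-CoA, made from pyruvate, fatty acids, ketone bodies and some amino acids, to carbon dioxide. The electrons it releases as NADH and reduced flavin feed the respiratory chain. Slow fibres such as those that dominate the soleus are rich in mitochondria, and citrate synthase activity is a customary index of the oxidative capacity of a muscle. Intermediates drawn off for synthesis are replaced by side reactions called anaplerosis, among them the carboxylation of pyruvate.

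The arrays resembled each other closely. Log2 signals of the 5257 tested probe sets correlated at 0.988 between the unloaded pools and at 0.987 between the control pools. An unloaded and a control pool correlated at 0.973 to 0.974, and the median signal per array was 33.9 to 35.6. With no other tissue on these arrays the soleus label could not be tested. Of 8 slow-fibre markers listed, 6 had a probe set. Their summed signal was 35850 and 39515 in unloaded pools and 38140 and 37145 in control pools, with Myh7, the slow myosin heavy chain, at 9534.3 and 10728.4 in unloaded pools and 10907.4 and 11198.2 in control pools on its brighter probe set.

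**Figure D1:**
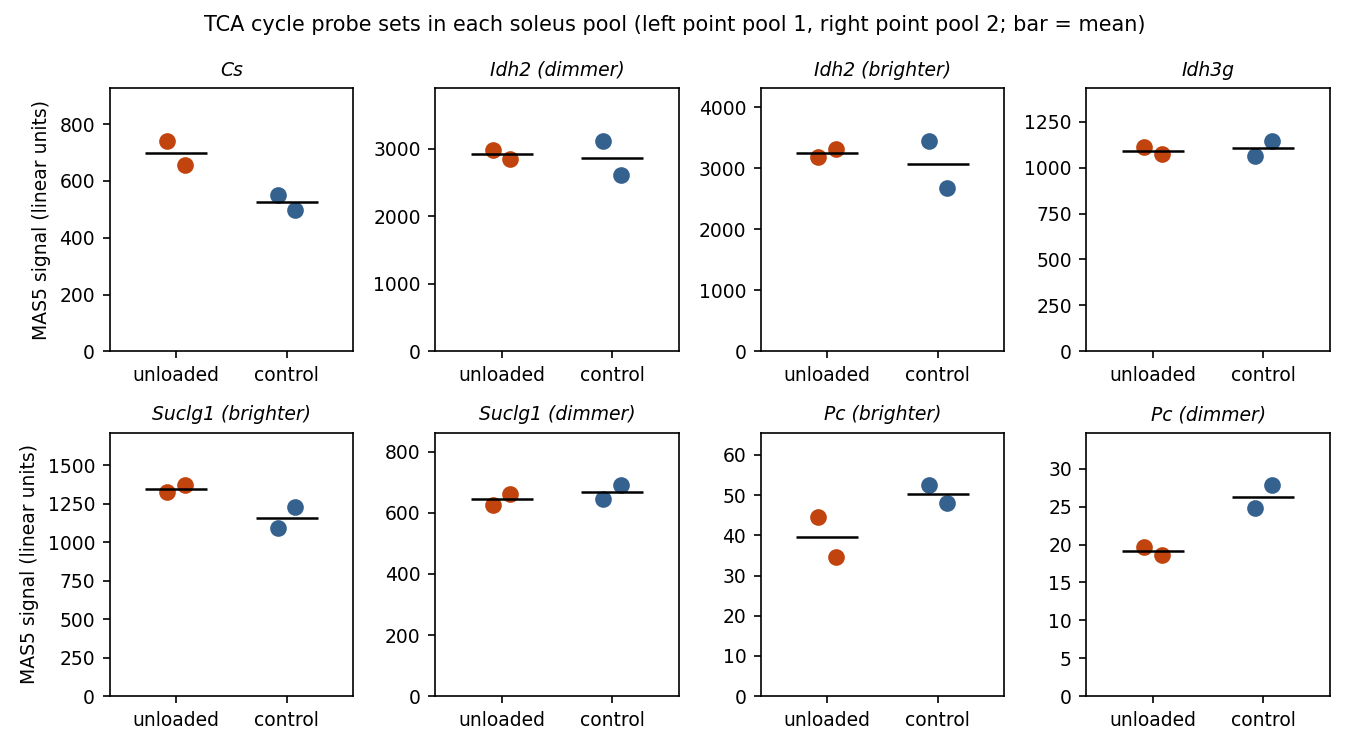
MAS5 signal (linear units, axis from 0) of the 8 probe sets in each pool, with unloaded pools on the left (red) and control pools on the right (blue). Within each group the left point is pool 1, the right point is pool 2 and the bar is their mean. The groups stand apart for Cs and the brighter Suclg1 probe set (unloaded above control) and for both Pc probe sets (unloaded below control), and overlap on the other 4.

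None of the 8 probe sets passed the test for a difference between unloaded and control soleus. The test was limma's moderated test with Benjamini-Hochberg adjustment over all 5257 tested probe sets, and an adjusted p under 0.05 was the threshold. It called 5.25% of all tested probe sets, 2.59% higher and 2.66% lower in unloaded pools, and 1 of the 8 (Cs) had an unadjusted p under 0.05, against 20.8% of all tested. Cs, citrate synthase, came closest, with a signal 1.33-fold that of controls. Idh2 and Idh3g gave log2 fold changes within 0.10 of 0. Pc, pyruvate carboxylase, gave the most negative values, -0.29 and -0.33, on dim probe sets. These are signals of RNA from whole muscle, in which fewer cells of a type and less RNA per cell cannot be told apart.

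The groups did not overlap on 4 of the 8 probe sets, with both unloaded pools above both control pools on 2 and below them on 2. Over all tested probe sets the groups did not overlap on 50.8%, with 25.5% higher and 25.3% lower in unloaded pools, so the share among these enzymes was near the background. With 2 pools per group an exact two-sided permutation test on a single value cannot go below p = 0.333. The median log2 fold change of the 8 probe sets was 0.01, and it was 0.00 over all tested probe sets. With the brightest probe set of each gene the median was 0.09 over 5 enzymes and 0.01 over 3152 genes. Fold changes are unloaded minus control on the scale log2(signal + 9), which understates the change of dim probe sets, and are given with the standard error (SE) and the 95% interval of the fit.

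Cs condenses acetyl-CoA with oxaloacetate to citrate, the entry step of the cycle. Its probe set (rc_AA799819_at) read 741.4 and 656.6 in unloaded pools, against 549.4 and 498.7 in control pools. Both unloaded pools lay above both control pools, and the gap between the groups was larger than the difference between pools of a group. The means were 699 ± 59.96 in unloaded and 524 ± 35.9 in control soleus (SD, n = 2 each). The log2 fold change was 0.41 (SE 0.11, interval 0.16 to 0.65, limma adjusted p = 0.0714), which did not pass. Of all tested probe sets 15.0% had a change at least as large in either direction. The call turned on which probe sets were tested, since Cs passed (limma adjusted p = 0.0409) when only probe sets with a mean signal at or above the 60th percentile were kept. Cs missed the threshold narrowly after scaling the arrays to equal medians (limma adjusted p = 0.0501). It missed by more without a filter (limma adjusted p = 0.151) and without a mean-variance trend (limma adjusted p = 0.186). With 1 array left out the log2 fold change of Cs was 0.32 to 0.50.

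Some markers of fast fibres, but not all, moved with the groups in the same direction as Cs. Of 8 fast-fibre genes with a probe set 5 rose and none fell by the same test. The groups overlapped on Myh1, Pvalb and Myh4. Myh1 read 79.1 and 57.5 in unloaded pools against 84.4 and 57.4 in control pools. Pvalb read 35.6 and 27.8 in unloaded pools against 37.8 and 33.3 in control pools. Myh4 read 33.5 and 24.8 in unloaded pools against 22.2 and 28.2 in control pools. The summed signal of the 8 genes, much of it from brighter ones such as Atp2a1, was 12042 and 11836 in unloaded pools. It was 8080 and 6644 in control pools, a ratio of 1.62. No tested marker of endothelium (3 genes), smooth muscle (4), blood (2), leukocytes (2) or Schwann cells (2) passed. Among these lists the summed signal stood apart between the groups for smooth muscle (1205 and 1306 in unloaded, 969 and 1087 in control pools), blood (5132 and 5035 in unloaded, 4256 and 4508 in control pools), endothelium (193 and 192 in unloaded, 206 and 214 in control pools) and Schwann cells (544 and 558 in unloaded, 576 and 626 in control pools). The part of fibre type or of these cells in the Cs value was not tested.

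Pc carboxylates pyruvate to oxaloacetate and so supplies the partner of acetyl-CoA in the Cs reaction. It is best known as a gluconeogenic and anaplerotic enzyme of liver and kidney and as a lipogenic one of adipose tissue. The brighter of its probe sets (U32314_at) read 44.6 and 34.5 in unloaded pools, against 52.4 and 48.1 in control pools. The dimmer one (U32314_g_at) read 19.7 and 18.6 in unloaded pools, against 24.8 and 27.8 in control pools. On both, each unloaded pool lay below each control pool. The gap on the brighter one, 3.5 units, was smaller than the 10.1 units between the unloaded pools. On the dimmer one the gap was 5.1 units, against 1.1 units between the unloaded and 3 units between the control pools.

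The log2 fold change of Pc was -0.29 (SE 0.18, interval -0.70 to 0.11, limma adjusted p = 0.392) on the brighter probe set and -0.33 (SE 0.20, interval -0.78 to 0.13, limma adjusted p = 0.397) on the dimmer, and neither passed. The intervals are the widest among these enzymes. The mean signal of the dimmer probe set, 22.7, was just above the minimum of 21.0 set for testing, and neither probe set reached a minimum at the 60th percentile. Adipocyte markers did not pass on any of 3 tested genes, and the summed signal of 4 was 1254 and 1475 in unloaded pools against 1338 and 1571 in control pools. Their values did not differ in the same direction. Fabp4, a fatty acid carrier of fat cells, read 393.1 and 441 in unloaded pools against 317.8 and 351 in control pools. Cfd, the complement factor adipsin, read 109 and 105.9 in unloaded pools against 135.3 and 209 in control pools. Lep, the hormone leptin, overlapped between the groups on its brightest probe set, which made up the largest part of the sum. It read 745.9 and 914.9 in unloaded pools against 865.6 and 992.1 in control pools. Its other probe sets read 43.2 or less on every array, so the sum is a weak measure of fat cells. Plin1, the lipid droplet coat protein, read 5.8 and 12.9 in unloaded pools against 19.5 and 19.3 in control pools, under the minimum for testing. The part of fat cells in the Pc values was not tested.

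Idh2 is the mitochondrial isocitrate dehydrogenase that uses NADP, and it yields NADPH for antioxidant defence as well as 2-oxoglutarate. The brighter probe set (rc_AA891785_g_at) read 3177.5 and 3307.3 in unloaded pools, against 3449.5 and 2677.8 in control pools. The dimmer one (rc_AA891785_at) read 2978.7 and 2846.9 in unloaded pools, against 3116.9 and 2606.0 in control pools. On both probe sets the unloaded pools lay between the control pools, so the groups overlapped and the spread was in the controls. The SD between pools on the log2 scale was 0.04 in unloaded and 0.26 in control soleus on the brighter probe set, and 0.05 in unloaded and 0.18 in control soleus on the dimmer.

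The log2 fold change of Idh2 was 0.09 (SE 0.12, interval -0.19 to 0.38, limma adjusted p = 0.740) on the brighter probe set and 0.03 (SE 0.11, interval -0.21 to 0.28, limma adjusted p = 0.914) on the dimmer. As a ratio of unloaded to control, the interval of the brighter probe set runs from 0.874 to 1.30. Without control pool 2, the lower of the controls, the log2 fold changes turned to -0.09 and -0.10, and without unloaded pool 1 the dimmer probe set gave -0.0016.

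Idh3g encodes the gamma subunit of the NAD-dependent isocitrate dehydrogenase, a regulatory partner of the catalytic alpha subunit in the enzyme that carries the oxidative flux of the cycle. Its probe set (rc_AA892808_at) read 1110.6 and 1073.7 in unloaded pools, against 1063.6 and 1146.0 in control pools. The groups overlapped, and the unloaded pools again lay between the control pools. The log2 fold change was -0.02 (SE 0.09, limma adjusted p = 0.954), and its interval of -0.23 to 0.19 corresponds to a ratio of 0.855 to 1.14. The sign turned with median scaling, where it was 0.01, and without control pool 2 or unloaded pool 2. The size of these values was under 0.04 in each case.

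Suclg1 is the alpha subunit of succinate-CoA ligase, shared by the forms of the enzyme that make ATP and GTP from succinyl-CoA. Its probe sets are annotated to different sequence entries and did not give the same picture. The brighter (J03621_at) read 1324.2 and 1369.0 in unloaded pools, against 1091.1 and 1226.4 in control pools, so both unloaded pools lay above both control pools. The dimmer (U75393_s_at) read 626.3 and 661.6 in unloaded pools, against 646.4 and 689.3 in control pools, and there the groups overlapped.

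The log2 fold change of Suclg1 was 0.22 (SE 0.10, interval -0.0040 to 0.44, limma adjusted p = 0.249) on the brighter probe set and -0.05 (SE 0.09, interval -0.27 to 0.17, limma adjusted p = 0.822) on the dimmer. Neither passed, and their intervals overlap. No direction for Suclg1 is therefore given by these arrays.

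**Figure D2:**
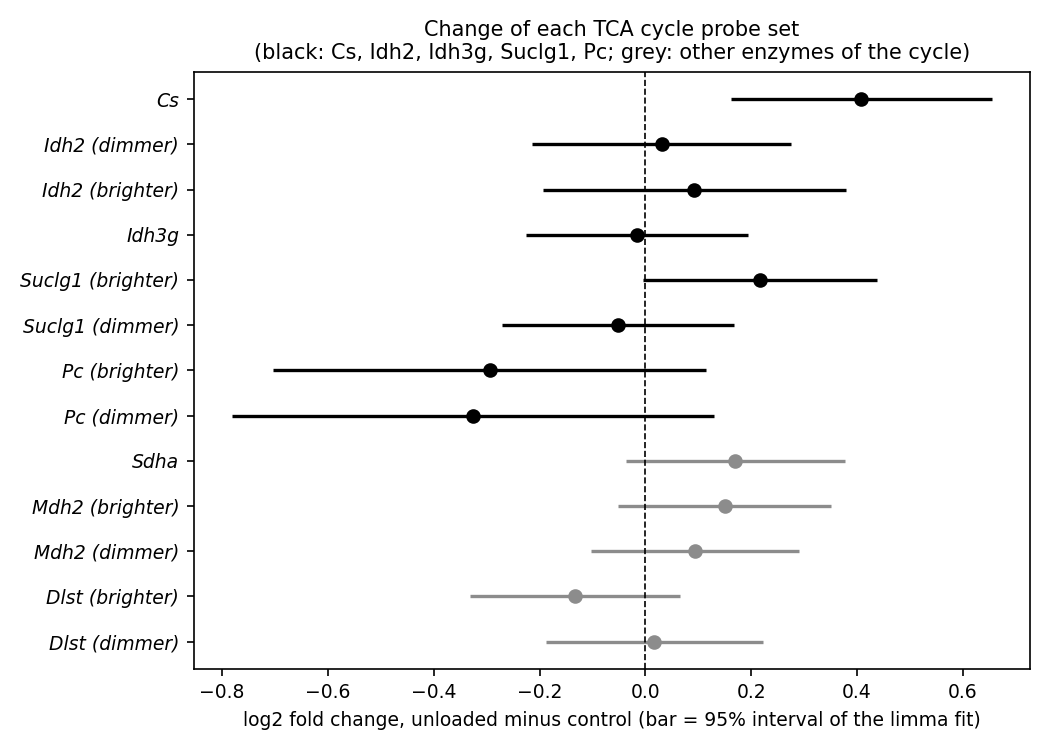
Log2 fold change, unloaded minus control, of each probe set of the 5 enzymes (black) and of the other tested TCA cycle enzymes (grey), with the 95% interval of the limma fit as bars and 0 as a dashed line. The interval of Cs, 0.16 to 0.65, is the single one drawn that does not reach 0, before any adjustment for the number of probe sets tested.

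The change of Cs was set against that of each other enzyme on its brighter probe set, as the difference of their log2 signals on the same array. The Cs change exceeded that of Pc by 0.70, of Idh3g by 0.42, of Idh2 by 0.32 and of Suclg1 by 0.19 on the log2 scale. For Pc, Idh3g and Idh2 both unloaded pools lay above both control pools in this difference, and for Suclg1 the groups overlapped. In the difference from Pc, centred on the control mean, the unloaded pools stood at 0.64 and 0.77 and the control pools at 0.02 and -0.02, and in that from Idh3g the unloaded pools stood at 0.49 and 0.36 and the control pools at 0.12 and -0.12. These differences are given as values, since the exact permutation test cannot pass with 2 pools per group. No other test of them was run. Cs had the largest log2 fold change among these enzymes, so the sign of each difference was known beforehand. How often Cs minus any tested gene stands apart between the groups was not computed.

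The pools of a group agreed to differing degrees, least for Idh2 in controls (SD 0.26 on the log2 scale on its brighter probe set). Combined over both groups, the SD between pools of a group was 0.06 to 0.18 on that scale. Its median was 0.10, against 0.13 over all tested probe sets, a comparison not matched for brightness. The 95% intervals of the changes were 0.42 to 0.91 log2 wide.

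The genes whose pattern over the 4 arrays was nearest to that of Cs, the enzyme with the smallest p, were Ppp1r21, Maf, Pias3, Mmp14 and Cdc20. Likeness was the Euclidean distance between log2 signals centred on their own mean, with 1 probe set per gene. Their distances from Cs were 0.03 to 0.07, against a median of 0.50 over the 3147 genes compared. Their log2 fold changes were 0.36 to 0.40. The genes were picked for the smallest distance, so small distances and fold changes near that of Cs follow from the choice. How close the nearest genes lie to other patterns over 4 arrays was not computed, and no link with Cs is drawn. All were dimmer than Cs, with group means from 18.55 (Cdc20, control) to 102.45 (Maf, unloaded).

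The remaining enzymes of the cycle gave no call either. Of 10 genes listed, 4 had a probe set with 1 symbol and 3 of them were bright enough to test, and none passed (0 of 3, against 4.70% of all genes tested, with none at an unadjusted p under 0.05). Sdha, the flavoprotein subunit of succinate dehydrogenase, read 1942.2 and 1957.4 in unloaded pools against 1810.4 and 1656.3 in control pools, a log2 fold change of 0.17 (SE 0.09). Mdh2, the mitochondrial malate dehydrogenase that regenerates oxaloacetate, gave 0.15 (SE 0.09) on its brighter and 0.09 (SE 0.09) on its dimmer probe set, with unloaded pools above control pools on both. Dlst, the succinyl-transferase core of the 2-oxoglutarate dehydrogenase complex, gave -0.13 (SE 0.09) with unloaded pools at 1041.3 and 1046.8 and control pools at 1144.2 and 1146.7, and 0.02 (SE 0.09) on its dimmer probe set. Sucla2, the ATP-forming beta subunit that pairs with Suclg1, read 3.8 and 0.4 in unloaded pools and 0.7 and 0.3 in control pools, under the minimum for testing.

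Among 20 tested genes that bring carbon into the cycle or carry it out, none rose and 1 fell by the brightest probe set. That share was near the 4.70% called among all genes, and the median log2 fold change of the 20 was 0.03. On these probe sets 8 of the 20 genes had a limma unadjusted p under 0.05, against 20.8% of all tested probe sets. The groups did not overlap on 15 (9 higher and 6 lower in unloaded pools), against 50.8% of all tested probe sets. These 2 shares lay above the background, and the excess was not tested. The gene that fell was Bdh1, the mitochondrial 3-hydroxybutyrate dehydrogenase of ketone body use. It read 109.7 and 93.0 in unloaded pools against 196.7 and 202.0 in control pools, with a log2 fold change of -0.92 (SE 0.13, limma adjusted p = 0.0072). The fall was -0.81 to -0.94 with control pool 1, control pool 2 or unloaded pool 2 left out, and did not pass in those 3 fits (limma adjusted p = 0.0642 to 0.0737).

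Of the 4 genes with the next smallest p in that list, 3 gave positive values and 1 a negative value, and none passed on its brightest probe set. Pdhb, the beta subunit of the E1 component of pyruvate dehydrogenase, gave 0.45 (SE 0.11, limma adjusted p = 0.0641) on its brighter probe set. It passed there when dim probe sets below the 60th percentile were left out (limma adjusted p = 0.0335) and after median scaling (limma adjusted p = 0.0424). On the dimmer probe set Pdhb rose (0.71, SE 0.14, limma adjusted p = 0.0318), a call lost with any 1 array left out (limma adjusted p = 0.0605 to 0.202), without a filter (0.114) and without a mean-variance trend (0.0969). Acly, which splits exported citrate in the cytosol for lipid synthesis, gave 0.45 (SE 0.12, limma adjusted p = 0.0821) on the brightest of its probe sets, with 0.14 (SE 0.15) and -0.28 (SE 0.21) on dimmer ones. Got1, the cytosolic aspartate aminotransferase, gave 0.41 (SE 0.11, limma adjusted p = 0.0889). Acly and Got1 also passed with dim probe sets left out (limma adjusted p = 0.0479 and 0.0484). Acat1, the acetoacetyl-CoA thiolase that acts on the same ketone body route as Bdh1, further along towards acetyl-CoA, gave -0.39 (SE 0.11, limma adjusted p = 0.0907) on the brightest of its probe sets, with -0.42 (SE 0.13) and -0.02 (SE 0.10) on dimmer ones.

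The respiratory chain, which uses the NADH made by the cycle, and ATP synthase were listed for comparison. Of 48 tested genes none rose and 1 fell by the brightest probe set, against 4.70% called among all genes. Their median log2 fold change was -0.04, with 16 above 0 and 32 below, and the median over all genes was 0.01. The count of signs was not tested, and the share of all genes on each side of 0 was not computed. Atp5if1, the inhibitor of ATP synthase, fell with a log2 fold change of -0.53 (SE 0.10, limma adjusted p = 0.0226), and did not pass in any fit with 1 array left out (limma adjusted p = 0.0978 to 0.178), without a filter (0.0626), without a mean-variance trend (0.0920) or with the pool number as a block (0.0549). The dimmer probe sets of Atp5if1 gave -0.40 (SE 0.20), -0.32 (SE 0.12) and -0.15 (SE 0.27), and none of them passed (limma adjusted p = 0.193 to 0.814). The 4 other genes with the smallest p were Ndufb2 (-0.38), Ndufb11 (0.29), Ndufa8 (-0.37) and the complex I core subunit Ndufs1 (-0.28), and none passed. Uqcrfs1, the iron-sulphur subunit of complex III, is added after its values were seen because a dimmer probe set passed. That probe set read 1236 and 1243.9 in unloaded pools against 886.6 and 943.5 in control pools, and rose by 0.44 (SE 0.09, limma adjusted p = 0.0321). The call was lost with any 1 array left out (limma adjusted p = 0.117 to 0.176), without a filter (0.0804), without a mean-variance trend (0.132) and with the pool number as a block (0.0606). Its brightest probe set gave -0.01 (SE 0.10) and another 0.04 (SE 0.12). The difference between this list and the TCA cycle enzymes was not tested.

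**Figure D3:**
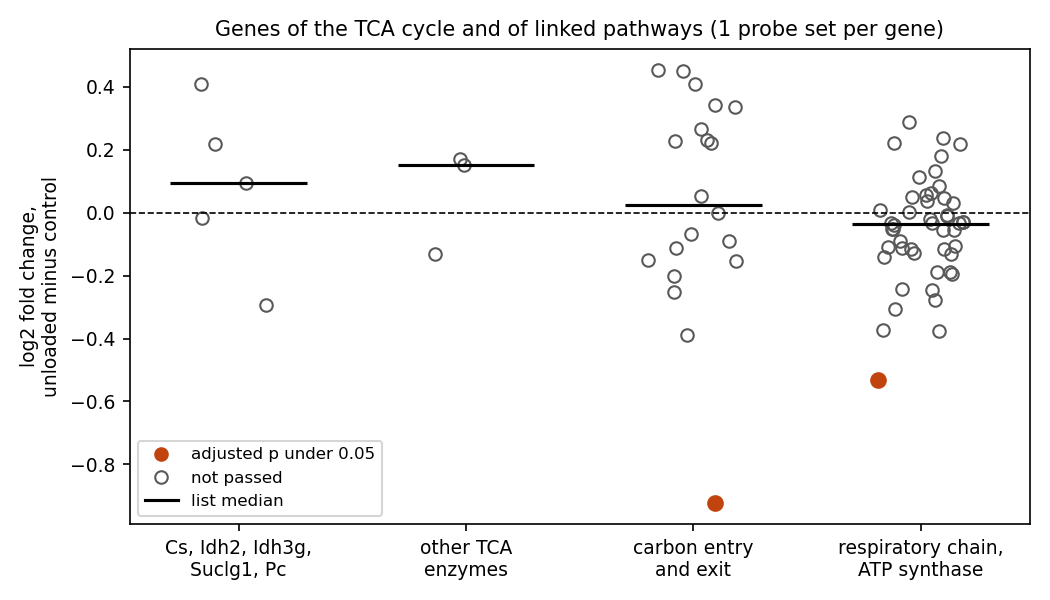
Log2 fold change, unloaded minus control, of each tested gene by its brightest probe set, in 4 lists. Filled red points passed an adjusted p under 0.05, open points did not, and bars are list medians. The passing points are Bdh1 (-0.92) and Atp5if1 (-0.53), and the 5 TCA cycle enzymes span -0.29 to 0.41.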

How the data were processed

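The authors deposited 1 table of signal intensities per probe set and array on a linear scale, made with MAS5 per the submitters' processing notes (neither version nor settings are given there). Trimmed means were 150.2 to 150.3 on all 4 arrays. Of 8799 probe sets, 59 controls were left out; 7006 had 1 symbol in the platform annotation (6985 matched by gene ID to RefSeq's GRCr8 table, whose symbol was then used), 308 had several and 1426 none. Signals were transformed as log2(signal + 9), 9 being their 25th percentile. Testing was limited to the 5257 whose mean signal reached the 40th percentile, 21.0, which included all 8 described. Unloaded and control arrays were fitted with limma 3.58.1 in R 4.3.3 (lmFit, eBayes with a mean-variance trend; 2 residual and 5.80 prior degrees of freedom). The steps were run 20 times on simulated data with planted changes and independent noise. Such runs do not show how the steps behave where genes vary together. How often small changes were recovered is not reported here.

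Every probe set of the 5 enzymes is named. From each further list every gene that passed on its brightest probe set is named, with the 4 others of smallest p. The enzymes and lists were chosen with earlier results of these data known, so no p-value is given for a list. Alternatives were other offsets and filters, quantile normalization, median scaling, a fit with no mean-variance trend, a block for the pool number, and leaving out each array. Neither detection calls nor array batches were used. Plots were made in Python 3.11.15 with matplotlib 3.10.9.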

Additional observations from a re-analysis of the deposited data

How the results depend on the processing

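Over 13 alternatives none of the 8 TCA cycle probe sets passed, except Cs with a filter at the 60th percentile, which gives 1 call among the 6 probe sets then tested. The adjusted p of Cs ranged from 0.0409 to 0.354 over the 12 alternatives with a fit. The median log2 fold change of the enzymes was 0.0928 with 1 probe set per gene, and -0.05 to 0.04 with 1 array left out. With 1 array left out, the log2 fold change ranged from -0.098 to 0.160 for the dimmer Idh2 probe set, from -0.0894 to 0.275 for the brighter and from -0.0691 to 0.0377 for Idh3g, and with median scaling Idh3g gave 0.0131; the cause of these turns in sign was not tested. Over all tested probe sets, 136 higher and 140 lower calls became 42 and 48 without a filter, 52 and 61 without a mean-variance trend, and 22 to 43 higher and 38 to 55 lower with 1 array left out. The labels do not say that a pool number is shared between groups, and deviations of same-numbered pools correlated at -0.04. With the pool number as a replicate block the calls were 78 and 87, Cs had an adjusted p of 0.0792, and none of the 8 probe sets passed.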
